A study of Mus musculus with 12 samples.

Results

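The 92 genes described here had, at both ages studied, a mean RNA level in *Tbpl2*-/- oocytes of at most 0.2 of the WT mean. They were chosen by these measured values: the mean normalised count of 3 *Tbpl2*-/- libraries over that of 3 WT libraries was at most 0.2 at P7 and again at P14, and the mean over all 12 libraries was at least 100. Of 55450 genes in the table, 11548 reached that mean and 165 met all limits, and 73 of those were left out by symbol (solute carriers, kinesins, histones, the Zfp, Fbxw and Gm genes, symbols ending in Rik, and single genes such as *Tbpl2* and *Bmp15*), which left 92. Because both genotype differences chose the genes, the levels in *Tbpl2*-/- and WT oocytes are given as a description, with no test.

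The study collected oocytes from mice that lack *Tbpl2* (Tbp2 null in the labels, written *Tbpl2*-/- here) and from WT mice, at P7 from primary follicles and at P14 from secondary follicles (postnatal days 7 and 14). Each of the 4 groups (P7 *Tbpl2*-/-, P7 WT, P14 *Tbpl2*-/-, P14 WT) had 3 libraries from pools of 251 to 340, 350 to 400, 130 to 214 and 144 to 260 oocytes in that order, freed from the ovary by enzymes and picked by size. A pool mixes oocytes of animals that the labels do not tell apart, and they name no strain.

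TBPL2 is a paralogue of the TATA-binding protein TBP that vertebrate oocytes use while they grow, in a complex with TFIIA and without the TFIID subunits. A growing oocyte makes and stores RNA for its own coat, for signals to the surrounding granulosa cells and for the first divisions of the embryo. Among the 92 genes are *Plat*, which encodes tissue plasminogen activator and whose mRNA mouse oocytes store in a dormant form, *Gpr35* for a G-protein-coupled receptor, *Tnfsf11* for the cytokine RANKL, and *Krt8* for a keratin of simple epithelia.

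Library totals lay between 31467610 and 48030724 reads on genes, and replicates of a group correlated at 0.981 to 0.992 (Pearson r of log2 values over genes). *Tbpl2* itself had normalised counts of 75.2 to 117 in P7 *Tbpl2*-/- and 3027 to 3317 in P7 WT libraries, and of 75.3 to 83.3 in P14 *Tbpl2*-/- and 1900.5 to 2442 in P14 WT libraries. Libraries of a group differed along the age axis. Among the 1654 genes called higher at P14 than at P7 in WT, P7 WT replicate 1 was the highest of its group for 63.2%. It was the lowest for 70.6% of the 2021 called lower. Of the 1556 genes called higher in *Tbpl2*-/-, P14 *Tbpl2*-/- replicate 3 was the highest of its group for 57.9% and replicate 1 the lowest for 57.0%. Of the 895 called lower there, replicate 1 was the highest for 52.7% and replicate 3 the lowest for 47.9%. Markers of granulosa cells moved with genotype at P7. There their summed level over 14 genes was 1136 to 1476 normalised counts in *Tbpl2*-/- and 2305 to 3093 in WT libraries, and at P14 it was 2147 to 2534 in *Tbpl2*-/- and 2298 to 2616 in WT. By edgeR 9 of the 14 were called lower at P7 and 0 higher (also 0 at an unadjusted p under 0.05 and by DESeq2, and 1 with library size alone), and 1 lower and 1 higher at P14 (0 lower and 3 higher with library size alone). Their part in the levels below was not tested. For these lists, the shares over all 17715 tested genes were 17.1% lower and 15.5% higher at P7, and 14.6% lower and 16.7% higher at P14. On the oocyte list 7 genes besides members were tested, with 3 called lower at each stage and 1 higher at P14. On the theca and stroma list 2 of 4 tested genes were called higher at P7, and 1 higher and 1 lower at P14, and no marker of erythroid cells had enough counts for a test. In pooled cells, fewer cells of a type and less RNA per cell cannot be told apart.

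The sequence before the start of transcription is shown first, since TBP and its paralogues act there. RefSeq promoters (GRCm38.p6) were found by symbol for 60 of the 92 genes, with 71 annotated starts in all, and 32 genes had no entry. The letters TATAAA began 40 to 20 bases before a start in 3 of the 60 genes (5.00%), against 1.16% of 8978 genes with a mean of at least 100 and 2.41% of all 27025 genes with a promoter of the same length. The shorter letters TATAA, which every TATAAA holds, were there in 7 of the 60 (11.7%), against 2.33% and 4.22%. Both were read on the strand of the gene alone. The 7 stretches are printed as the 50 bases that end just before the start, with the motif in capitals.

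C86187 (chr7:46975912-46975961, minus strand): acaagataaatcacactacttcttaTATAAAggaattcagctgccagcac
Il17f (chr1:20784271-20784320, minus strand): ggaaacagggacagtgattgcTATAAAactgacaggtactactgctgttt
Oog2 (chr4:144190667-144190716, plus strand): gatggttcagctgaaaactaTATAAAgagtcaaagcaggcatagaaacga
Tnfsf11 (chr14:78308044-78308093, minus strand): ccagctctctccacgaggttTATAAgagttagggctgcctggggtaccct
Obox5 (chr7:15750320-15750369, plus strand): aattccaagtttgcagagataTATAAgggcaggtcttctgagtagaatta
Tnc (chr4:64046937-64046986, minus strand): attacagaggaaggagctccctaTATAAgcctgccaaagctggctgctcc
Dcdc2c (chr12:28548338-28548387, minus strand): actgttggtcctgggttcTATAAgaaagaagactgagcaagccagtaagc

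In these 7 promoters the motif began 25 to 32 bases before the start. They belong to genes of unlike roles: RANKL (*Tnfsf11*), a cytokine of the IL-17 family (*Il17f*), a matrix protein (*Tnc*), an oogenesin (*Oog2*), an oocyte homeobox factor (*Obox5*), a doublecortin-domain protein (*Dcdc2c*) and a long noncoding RNA (*C86187*). For comparison, the same stretches before *Krt8* and the first annotated start of *Gpr35* hold neither set of letters.

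Krt8 (chr15:102004343-102004392, minus strand): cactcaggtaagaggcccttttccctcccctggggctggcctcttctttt
Gpr35 (chr1:92973069-92973118, plus strand): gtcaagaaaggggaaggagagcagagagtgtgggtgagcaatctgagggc

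A missing match says only that these letters are not in this window. The start that an oocyte uses may lie elsewhere: 47 of the 71 RefSeq starts lay within 100 bases of the start of the GENCODE gene. Of the 7 with a motif, that of *Obox5* lay 239 bases, that of *Dcdc2c* 4062 bases and that of *Il17f* 6347 bases from it, and the printed starts of *Krt8* and *Gpr35* lay 140 and 22254 bases from it. *Dcdc2c* and *Tnc* each have another annotated start without the motif. For each gene, the start with the highest content of A and T in bases 35 to 20 before it was taken. That content had a median of 50% over the 60 genes and 37.5% over the genes with a mean of at least 100, and it was 50% over all genes with a promoter. It was 75% or more in 8 of 60 genes (13.3%), against 2.73% and 7.33%.

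**Figure D1:**
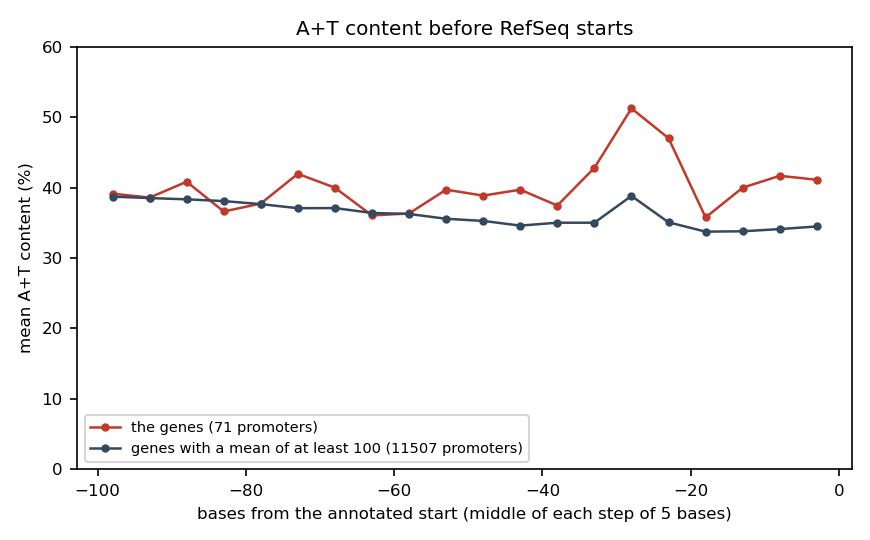
Mean content of A and T (%, y axis) in steps of 5 bases against the distance from the annotated start (x axis), for the 71 promoters of the genes described (red) and the 11507 promoters of genes with a mean of at least 100 (dark). The step that begins 30 bases before the start stands at 51.3% in the genes described and at 38.8% in the others.

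Across the 92 genes the level in *Tbpl2*-/- was between 0.698% and 19.8% of WT at P7, with a median of 10.4%, and between 2.53% and 19.98% at P14, with a median of 13.5%. Of 11548 genes with a mean of at least 100, 3.08% had a ratio of at most 0.2 at P7, 2.17% at P14 and 1.43% at both, which the rule used. The highest *Tbpl2*-/- library lay below the lowest WT library at both stages for 92 of 92 genes. That holds for 24.2% of the genes with a mean of at least 100, and nothing is read from it for genes the rule chose. For 50 of the 92 the highest *Tbpl2*-/- library was at most 0.2 of the lowest WT library at both ages. Ratios of at most 0.1 were found in 43 genes at P7, in 28 at P14 and in 23 at both. The ratio was the lower one at P7 in 66 genes and at P14 in 26.

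The ratios depend on how libraries are scaled. Dividing by library size alone moved the median log2 ratio of all 11548 genes by 0.30 at P7 and by 0.44 at P14, and 45 of the 92 then met the limits. The highest ratio among the 92 was 0.243 at P7 and 0.271 at P14 under that scaling, so all 92 stayed below WT by more than 3-fold. Just inside the limit at P7 lay *Dnajb4* (0.198), *Naaa* (0.198) and *Gli3* (0.196), and just outside it *Tcl1b4* (0.2002), *Arsk* (0.204) and *Tfap2c* (0.204). At P14 *Gdf9* (0.1998), *Btg4* (0.197) and *BC051537* (0.196) lay inside, and *Sft2d1* (0.20002), *Spert* (0.201) and *Cldn8* (0.204) outside. Against these gaps, the median coefficient of variation of the 92 genes among replicates was between 11.0% and 13.6% in the 4 groups.

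**Figure D2:**
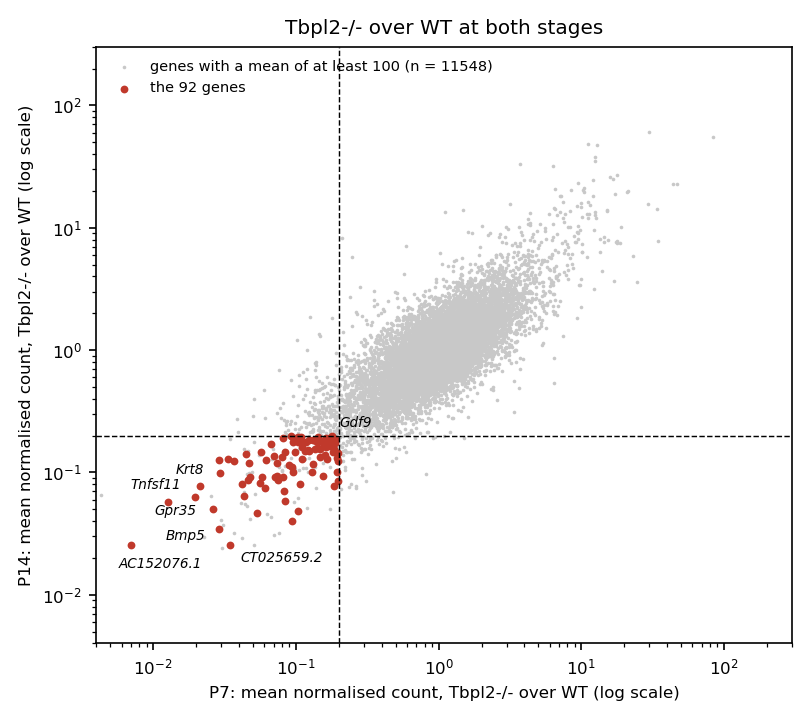
Mean normalised count in *Tbpl2*-/- over that in WT at P7 (x axis) and at P14 (y axis), both on log scales, for 11548 genes (grey) and the 92 genes described (red). Dashed lines mark the ratio of 0.2. Grey points in the lower left corner are genes left out by symbol. Of the 92, *AC152076.1* lies farthest left, and *Gdf9* sits at the P14 limit.

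Together the 92 genes took 0.584 ± 0.0244% of counts in P7 *Tbpl2*-/- and 3.84 ± 0.117% in P7 WT libraries, and 0.784 ± 0.0125% in P14 *Tbpl2*-/- and 3.68 ± 0.109% in P14 WT libraries (mean ± SD, n = 3). A few genes held most of this: the 5 highest took 53.5% of the summed WT level at P7 and 55.2% at P14. By mean level over the 6 libraries of a genotype, 2 of the 92 were among the 100 most abundant RNAs in *Tbpl2*-/- oocytes (*Gdf9* and *Zp1*) and 10 in WT oocytes. Mean WT levels ran from 216 to 335010 normalised counts, with 22 genes above 10000 and 34 below 1000.

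Secreted signals were 6 of the 92, with median ratios of 0.0432 at P7 and 0.122 at P14. Levels here and below are normalised counts of replicates 1, 2 and 3 in that order. *Gdf9* (chr11:53431023-53437904) encodes the oocyte growth factor that drives granulosa cells beyond the primary follicle. It had 57089, 56976 and 53269 in *Tbpl2*-/- libraries, against 319546, 301158 and 320676 in WT libraries at P7, and 76506, 70598 and 66457 in *Tbpl2*-/- libraries, against 344252, 397225 and 327201 in WT libraries at P14. It took rank 10 among RNAs of *Tbpl2*-/- oocytes, against rank 4 in WT, and stood at 17.8% of WT at P7 and 19.98% at P14. *Bmp5*, a bone morphogenetic protein, had 14.1, 10.6 and 13.7 in *Tbpl2*-/- libraries, against 521, 412 and 384 in WT libraries at P7. At P14 it had 29.7, 18.7 and 37.2 in *Tbpl2*-/- libraries, against 954, 664 and 878 in WT libraries. It thus held 2.92% of WT at P7 and 3.43% at P14, among the lowest ratios of the 92, and 46.0% of its 50-base stretches also occur in other genes, mostly in the overlapping *Gm26903*.

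Of 6 tested genes of the BMP and GDF list that are not among the 92, 1 was called lower, 1 higher and 4 were not called at P7, and the same counts were found at P14 (background over 17715 tested genes: 17.1% lower and 15.5% higher at P7, 14.6% lower and 16.7% higher at P14). *Bmp15*, the partner of GDF9, was the lower one (log2 fold change -4.45, adjusted p = 4.53e-12 at P7, edgeR). *Bmp7* was the higher one, with 3170.2 ± 412 normalised counts in P7 *Tbpl2*-/- and 282 ± 81.2 in P7 WT, and 5518 ± 218 in P14 *Tbpl2*-/- and 428 ± 96.6 in P14 WT (SD, n = 3). *Bmp6* gave log2 fold change 0.06, adjusted p = 0.692 at P7 and log2 fold change -0.41, adjusted p = 0.00546 at P14, below 2-fold at both.

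*Tnfsf11* (chr14:78277445-78308043), whose TATAA stretch is printed above, encodes RANKL, known for its part in bone resorption and in the growth of the mammary gland. It had 8.08, 9.54 and 4.21 in *Tbpl2*-/- libraries, against 589.7, 583 and 555 in WT libraries at P7, and 30.6, 37.5 and 42.4 in *Tbpl2*-/- libraries, against 697, 528 and 699 in WT libraries at P14. The level was 1.26% of WT at P7 and 5.74% at P14, and no *Tbpl2*-/- library came within 10-fold of a WT library. On the RANKL list its receptor gene *Tnfrsf11a* was near the limit of detection, with 12.5 ± 1.46 in P7 *Tbpl2*-/- and 8.48 ± 6.82 in P7 WT, and the decoy receptor *Tnfrsf11b* had 0 counts in all 12 libraries. Of the 6 other tested genes of that list 3 were called higher and 0 lower at each stage (0 lower also at an unadjusted p under 0.05 and by DESeq2): *Traf6*, *Nfatc1* and *Map3k14*, which act downstream of TNF-family receptors. *Traf6* had 479, 338 and 394 in P14 *Tbpl2*-/- libraries, against 60.1, 70.03 and 53.9 in P14 WT libraries.

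*Il17f*, for a cytokine of the IL-17 family that lymphocytes are known to secrete, had at P7 58.6, 57.2 and 78.8 in *Tbpl2*-/- libraries, against 2532, 2002 and 2059 in WT libraries, and at P14 211, 239 and 287 in *Tbpl2*-/- libraries, against 2548, 2539.6 and 2375 in WT libraries. On the list of 6 leukocyte markers, *Ptprc*, *Cd52* and *Tyrobp* averaged at most 1.77 normalised counts in any group, *Cd3e* at most 9.63 and *Csf1r* at most 11.6, and *Laptm5* between 248 and 513. The summed level of that list, most of it from *Laptm5*, was 347 to 465 in P7 *Tbpl2*-/- and 226 to 320.5 in P7 WT libraries, and 445 to 598 in P14 *Tbpl2*-/- and 220.0 to 306 in P14 WT libraries, and its part in the level of *Il17f* was not tested. Of 3 tested leukocyte markers 0 were called at P7 (1 higher at an unadjusted p under 0.05, 0 by DESeq2) and 2 higher at P14 (1 by DESeq2). *Gnrh1*, which encodes the precursor of gonadotropin-releasing hormone, stood at 14.2% of WT at P7 and 19.5% at P14, and *Egfl6*, for a secreted protein with EGF repeats, at 5.69% of WT at P7 and 14.6% at P14.

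Proteins of the egg coat and the extracellular space were 10 of the 92. *Plat* (chr8:22757727-22782844) was the second most abundant of all 92 in WT. At P7 it had 12125, 11051 and 11315 in *Tbpl2*-/- libraries, against 173610, 142425 and 143552 in WT libraries. At P14 it had 17281, 16709.7 and 17934 in *Tbpl2*-/- libraries, against 197099, 224599 and 177899 in WT libraries. It stood at 7.50% of WT at P7 and 8.66% at P14 and took rank 270 among RNAs of *Tbpl2*-/- oocytes, against rank 10 in WT. Per kb of exon it had 2773 normalised counts in P14 *Tbpl2*-/- and 32025 in P14 WT.

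In the plasminogen list, 8 other genes were tested, of which 3 were called lower and 1 higher at P7, and 2 lower and 1 higher at P14. With library size alone 0 were called lower at P14. *Plau*, for the other plasminogen activator, urokinase, averaged at most 1.88 normalised counts in any group. *Serpine2*, an inhibitor of both activators, was abundant, with 8894 ± 1941 in P14 *Tbpl2*-/- and 20634 ± 4014 in P14 WT (log2 fold change -1.19, adjusted p = 1.06e-05). *Lrp1*, a receptor that clears the activators, was lower at both stages (log2 fold change -1.31, adjusted p = 0.00282 at P7 and log2 fold change -1.39, adjusted p = 0.00193 at P14). *Plgrkt*, a plasminogen receptor, was the one called higher, with 45.2 ± 13.6 in P14 *Tbpl2*-/- and 6.96 ± 3.35 in P14 WT (SD, n = 3).

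*Zp1* encodes a protein of the egg coat and *Umodl1* another protein with a zona pellucida domain. *Zp1* had 27116, 26204 and 25557 in P7 *Tbpl2*-/- libraries, against 202631, 172843 and 175288 in P7 WT libraries, and stood at 14.3% of WT at P7 and 18.4% at P14. Its partners *Zp2* and *Zp3* were outside the limits, with log2 fold change -1.51, adjusted p = 2.48e-08 and log2 fold change -1.97, adjusted p = 2.23e-08 at P7. *Umodl1* stood at 16.97% of WT at P7 and 18.7% at P14. *Oosp3*, an oocyte-secreted protein, had a lower ratio than its 2 relatives on the same list. It had 472, 299 and 386 in P7 *Tbpl2*-/- libraries, against 7429, 8388 and 9340.2 in P7 WT libraries, or 4.60% of WT at P7 and 8.68% at P14. *Oosp1* gave log2 fold change -3.57, adjusted p = 6.58e-10 at P7 and log2 fold change -1.88, adjusted p = 2.98e-07 at P14, and *Oosp2* log2 fold change -1.53, adjusted p = 1.08e-07 and log2 fold change -0.33, adjusted p = 0.0403. *Serpinc1*, for antithrombin, shares 33.6% of its 50-base stretches with other genes, mostly with the overlapping *Zbtb37*, and stood at 14.1% of WT at P7 and 17.7% at P14. The matrix genes *Tnc* (tenascin C), *Has3* (a hyaluronan synthase), *Col13a1* (a transmembrane collagen) and *P4ha1* (a collagen prolyl hydroxylase) ranged from 10.1% to 18.9% at P7, and *Psg20*, a pregnancy-specific glycoprotein, stood at 4.51% of WT at P7 and 14.1% at P14.

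Receptors and other membrane proteins were 10 of the 92. *Gpr35* (chr1:92950865-92986391) had 70.7, 39.2 and 68.3 in P7 *Tbpl2*-/- libraries, against 3383, 1726 and 1685 in P7 WT libraries. At P14 it had 209.6, 228 and 305 in *Tbpl2*-/- libraries, against 5367, 4664 and 4616 in WT libraries. P7 WT replicate 1 was about 2-fold above the other P7 WT libraries, and it is the library of that group that stood toward P14 over all genes. The level was 2.62% of WT at P7 and 5.07% at P14. Of 8 other tested genes on the list of its relatives and lipid receptors, 1 was called lower and 3 higher at P7, and 3 lower and 4 higher at P14. *S1pr3* was lower at both stages (log2 fold change -1.81, adjusted p = 5.79e-07 at P14), *Lpar1* and *S1pr2* higher at both (log2 fold change 1.04, adjusted p = 1.14e-05 and log2 fold change 1.14, adjusted p = 4.43e-04 at P14). *Gpr3*, which keeps meiotic arrest in the mouse oocyte, gave log2 fold change -1.52, adjusted p = 1.21e-07 at P14. *Gpr55* was the other one called lower at P14 (log2 fold change -4.30, adjusted p = 0.00110) and was not called at P7. Its counts were low, with means of 1.44 in P14 *Tbpl2*-/- and 29.9 in P14 WT.

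*Mrap* encodes the accessory protein that brings the melanocortin receptor MC2R to the cell surface. It had at P7 53.5, 38.2 and 48.4 in *Tbpl2*-/- libraries, against 1437, 1674 and 1739 in WT libraries, and at P14 142, 176 and 125 in *Tbpl2*-/- libraries, against 1193, 1269 and 1048 in WT libraries, or 2.89% of WT at P7 and 12.6% at P14. The receptors themselves were close to 0: *Mc2r* averaged at most 1.38 normalised counts in any group and *Mc5r* at most 4.09. *Pomc*, for the precursor of the melanocortin peptides, was called higher at both stages, with 142, 108 and 64.04 in P14 *Tbpl2*-/- libraries, against 10.7, 9.18 and 11.4 in P14 WT libraries (log2 fold change 3.32, adjusted p = 4.86e-07).

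*Pecam1*, an adhesion molecule of endothelial cells that germ cells are also known to carry, had at P7 86.9, 98.6 and 78.8 in *Tbpl2*-/- libraries, against 1157, 591 and 786 in WT libraries, and at P14 351, 464 and 503 in *Tbpl2*-/- libraries, against 2767, 1995 and 2709.6 in WT libraries. Of the 4 other endothelial markers, *Cdh5* averaged at most 1.13 and *Emcn* at most 0.341 normalised counts in any group, *Kdr* between 14.2 and 94.2, and *Tek* between 500.2 and 1082. Without *Pecam1*, the summed level of that list was 597 to 735 in P7 *Tbpl2*-/- and 420.0 to 686 in P7 WT libraries, most of it from *Tek*. At P14 it was 534 to 657 in *Tbpl2*-/- and 1083 to 1204 in WT libraries, where *Tek* was called lower (log2 fold change -1.09, adjusted p = 6.74e-05, and not called with library size alone), and its part in the level of *Pecam1* was not tested. *Tgfbr3* (betaglycan, a co-receptor of TGF-beta ligands and inhibins) stood at 11.6% of WT at P7 and 14.98% at P14, *Mfsd2a* (a transporter of lysophospholipids) at 5.61% of WT at P7 and 8.11% at P14, *Cnpy4* at 10.3% of WT at P7 and 19.5% at P14, and *Gjb2* (connexin 26) at 8.23% of WT at P7 and 7.08% at P14. *Ifitm6*, *Ank* and *Prrg1* lay between 6.64% and 19.4% at P7.

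**Figure D3:**
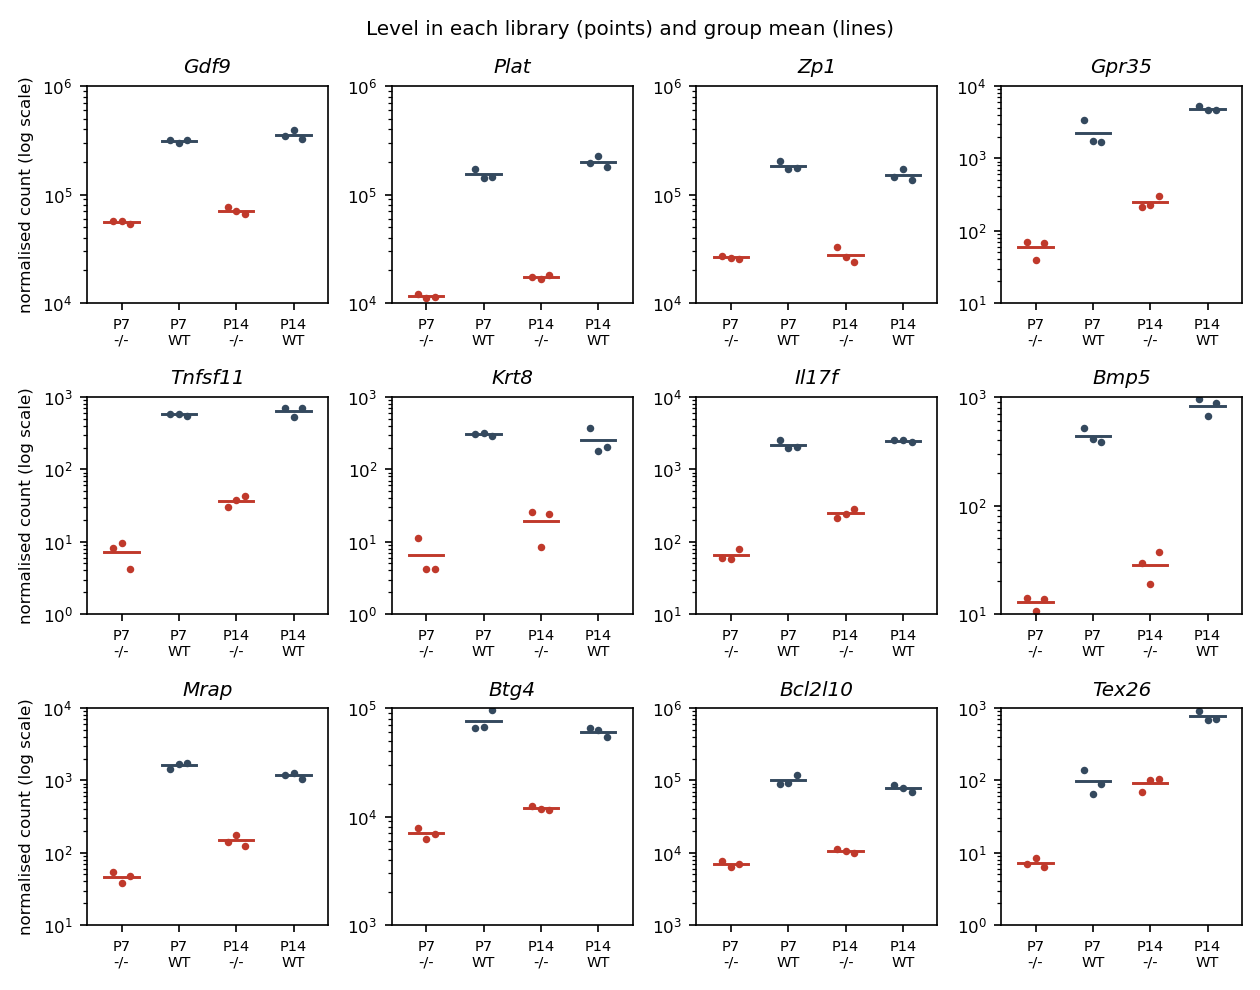
Normalised counts (y axes, log scale) of 12 of the genes in each library (points) with the group mean (line). Groups stand in the order P7 *Tbpl2*-/-, P7 WT, P14 *Tbpl2*-/-, P14 WT, with *Tbpl2*-/- (labelled -/-) in red and WT in dark. All red points of a stage lie below all dark points of that stage in each panel, and *Tex26* in P14 *Tbpl2*-/- is near its P7 WT level.

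Regulators of transcription and chromatin were 8 of the 92. *Obox5*, an oocyte homeobox factor with TATAA before its start, had 5278, 5434 and 5614 in P14 *Tbpl2*-/- libraries, against 32657, 30608 and 26262 in P14 WT libraries, and 18.1% of its stretches occur in other genes, mostly Obox7. *Bmi1* and *Scml2* encode proteins of the polycomb type and stood at 13.2% of WT at P7 and 18.5% at P14, and at 9.34% of WT at P7 and 11.1% at P14. *Insm1*, a zinc finger factor of neuroendocrine cells, had at P7 114, 104 and 94.6 in *Tbpl2*-/- libraries, against 2617, 2838 and 2989 in WT libraries, and at P14 172, 244 and 274 in *Tbpl2*-/- libraries, against 1712, 1391 and 2469.97 in WT libraries. The hedgehog-pathway factor *Gli3* (19.6% of WT at P7 and 8.43% at P14), the maternal homeobox gene *Sebox* (19.4% of WT at P7 and 13.1% at P14), the MuvB subunit gene *Lin52* (11.8% of WT at P7 and 17.7% at P14) and *Foxp2* (8.17% of WT at P7 and 9.21% at P14) complete this group, in which *Insm1* had the lowest ratio at P7.

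The 5 genes of RNA control had median ratios of 0.157 at P7 and 0.163 at P14. *Btg4*, an adaptor that brings the CCR4-NOT deadenylase to maternal mRNA, had 7851, 6243 and 6847 in P7 *Tbpl2*-/- libraries, against 66015, 66828 and 95127 in P7 WT libraries. At P14 it had 12567, 11732 and 11459.9 in *Tbpl2*-/- libraries, against 65386, 62060.3 and 53715 in WT libraries, which put it just inside the limit. *Dcp1a*, a cofactor of mRNA decapping, stood at 16.5% of WT at P7 and 12.8% at P14, *Zc3h6*, a CCCH zinc finger gene, at 13.3% of WT at P7 and 11.8% at P14, *Patl2*, a repressor of translation in oocytes, at 17.9% of WT at P7 and 17.5% at P14, and the splicing kinase gene *Clk1* at 15.7% of WT at P7 and 16.3% at P14.

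Genes that respond to stress or growth factors within minutes in many cells were 7 of the 92. *Dusp1*, a phosphatase of MAP kinases, had 228, 202 and 182 in P7 *Tbpl2*-/- libraries, against 3974, 2937 and 2975 in P7 WT libraries, or 6.20% of WT at P7 and 12.7% at P14. *Nfkbia*, which encodes the inhibitor of NF-kappa-B, stood at 12.4% of WT at P7 and 14.8% at P14, *Egr1* at 11.1% of WT at P7 and 17.5% at P14, *Nfkbiz* at 15.4% of WT at P7 and 9.42% at P14, *Plk3* at 8.41% of WT at P7 and 5.83% at P14 and the co-chaperone gene *Dnajb4* at 19.8% of WT at P7 and 12.3% at P14. *Hspa1b*, for the inducible HSP70, stood at 4.36% of WT at P7 and 6.38% at P14, but 62.3% of its stretches are shared, mostly with *Hspa1a*. Only uniquely aligned reads were counted, so reads that fit both copies equally were left out.

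Among 3 genes of survival and the cell cycle, *Bcl2l10* was the most abundant. This member of the BCL2 family, highly expressed in oocytes, had 7775, 6327 and 6873 in P7 *Tbpl2*-/- libraries, against 89248, 90479 and 120412 in P7 WT libraries. At P14 it had 11149, 10649 and 9756 in *Tbpl2*-/- libraries, against 86529, 77862 and 68655 in WT libraries, so that its ratio was 6.99% at P7 and 13.5% at P14. *Ccne2* (cyclin E2) stood at 16.6% of WT at P7 and 17.3% at P14 and *Naip1* at 18.3% of WT at P7 and 14.6% at P14, with 31.5% of the stretches of *Naip1* shared, mostly with *Naip3*.

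Families of the oocyte and the early embryo gave 7 genes. *Ooep*, which encodes a protein of the subcortical maternal complex, had at P7 6519, 5881 and 7028 in *Tbpl2*-/- libraries, against 57986, 92602 and 89312 in WT libraries, and at P14 5879, 6941 and 6007 in *Tbpl2*-/- libraries, against 33496, 28258 and 37479 in WT libraries. *Nlrp9b* stood at 18.7% of WT at P7 and 14.6% at P14, *C87977*, of a PRAME-like family, at 4.75% of WT at P7 and 9.10% at P14, *Tcl1b1* at 17.04% of WT at P7 and 19.2% at P14, *Tcl1b2* at 14.8% of WT at P7 and 15.6% at P14, *Oog2* at 15.00% of WT at P7 and 18.05% at P14 and *Tcstv3* at 3.33% of WT at P7 and 12.8% at P14. These genes have near copies in the genome: 24.01% of the stretches of *C87977*, 24.04% of *Tcl1b2*, 33.4% of *Oog2* and 31.4% of *Tcstv3* occur in other genes. *Tcl1b2* and *Tcl1b1* lie 4465 bases apart on chromosome 12, and *Oog2* and *C87977* lie 9841 bases apart on chromosome 4. With *CT025659.3* and *CT025659.2* on chromosome 17, which overlap, these were the only pairs of the 92 within 100 kb.

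Enzymes of lipid and sugar metabolism were 10 of the 92. *Acsl3*, an acyl-CoA synthetase of lipid droplets, stood at 16.2% of WT at P7 and 16.2% at P14, with 1440.1 ± 19.4 in P14 *Tbpl2*-/- and 8899.8 ± 411 in P14 WT (SD, n = 3). *Tgds* stood at 10.96% of WT at P7 and 12.8% at P14 and *C1galt1c1*, the chaperone of an O-glycosylation enzyme, at 14.8% of WT at P7 and 13.2% at P14. *Dgkk*, a diacylglycerol kinase, had one of the 5 lowest ratios at P14, with 16.3, 27.8 and 35.5 in *Tbpl2*-/- libraries, against 867, 452 and 659.8 in WT libraries. Its P7 WT libraries had 592, 214 and 196, again with replicate 1 the highest. *Pld2*, *Dhtkd1*, *Fmo5*, *Abhd3*, *Naaa* and *Gykl1* ranged from 7.71% (*Fmo5*) to 14.5% (*Naaa*) at P14.

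The remaining 13 coding genes with a named protein include *Krt8* (chr15:101996698-102004482), which had at P7 11.1, 4.24 and 4.21 in *Tbpl2*-/- libraries, against 308, 319 and 289 in WT libraries, and at P14 25.8, 8.33 and 24.2 in *Tbpl2*-/- libraries, against 375, 178 and 206 in WT libraries. The group means gave 2.13% of WT at P7 and 7.69% at P14. Because the P7 *Tbpl2*-/- libraries hold few reads of this gene, and 29.7% of its stretches also occur in other genes, mostly in *Krt8-ps*, its lowest values are uncertain. Of the other keratins of simple epithelia, *Krt18*, its usual partner, averaged 1.01 in P7 *Tbpl2*-/- and 10.9 in P7 WT, *Krt19* at most 0.341 in any group, and of the 2 other tested keratins 0 were called at either stage by edgeR or DESeq2 (1, *Krt80* at P14, had an unadjusted p under 0.05). Of the other markers of the ovarian surface epithelium, *Upk1b* averaged at most 1.37, *Msln* at most 3.04 and *Muc16* at most 18.6 normalised counts in any group. *Upk3b* averaged 41.9 in P7 *Tbpl2*-/- and 40.6 in P7 WT, and 55.8 in P14 *Tbpl2*-/- and 173 in P14 WT. *Cdh1*, which oocytes also express, held most of that list's level. Without *Krt8* the list summed to 6177 to 8099 in P7 *Tbpl2*-/- and 4940.4 to 8267 in P7 WT libraries, and to 10770.3 to 12426 in P14 *Tbpl2*-/- and 13927 to 14886 in P14 WT libraries. Of its 3 other tested genes 0 were called at P7 (0 also at an unadjusted p under 0.05 and by DESeq2), and *Upk3b* was called lower at P14. The part of these markers in the level of *Krt8* was not tested.

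*Ccdc69* was the most abundant of these 13 and stood at 5.75% of WT at P7 and 9.21% at P14, with 2722, 2268 and 2293 in P7 *Tbpl2*-/- libraries, against 41105, 37994 and 47571 in P7 WT libraries. *Kbtbd7*, an adaptor of a CUL3 ubiquitin ligase, stood at 13.7% of WT at P7 and 15.7% at P14 and *Cmya5* at 9.86% of WT at P7 and 14.8% at P14. *Calr4*, *Prr18*, *Lrmda*, *Calb1*, *Trim15*, *Tex26*, *Ttc32*, *Dcdc2c* and *Sec14l5* ranged from 4.69% (*Lrmda*) to 17.4% (*Dcdc2c*) at P7.

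No role was assigned to 13 genes, which hold the 9 genes of the 92 that are not annotated as protein coding. Of these 13, *D10Wsu102e*, *D6Ertd527e* and *AU022751* had the most counts in WT. *D10Wsu102e* stood at 18.6% of WT at P7 and 15.6% at P14, *D6Ertd527e* at 9.52% and 17.6%, and *AU022751* at 11.1% and 16.1%. *D10Wsu102e* has 123179 bases of exon, and 10.2% of its 50-base stretches occur in other genes. Per kb of exon its WT level was 874 normalised counts, against 37141 for *D6Ertd527e* and 35501 for *AU022751*. The long noncoding RNA *C86187*, with TATAAA before its start, had 1769.6, 1294 and 1289 in *Tbpl2*-/- libraries, against 31743, 33925 and 37718 in WT libraries at P7. The lowest ratio at P7 was that of *AC152076.1* (biotype TEC, a region to be experimentally checked), which had 3, 1 and 0 reads in the P7 *Tbpl2*-/- libraries and 577 reads over the P7 WT libraries. Its ratio of summed reads was 0.00710, with a 95% interval of 0.00193 to 0.0183 (exact binomial, counting error only), and at P14 it stood at 2.53%, the same as *CT025659.2*, with 7.66, 2.78 and 17.3 in *Tbpl2*-/- libraries, against 396, 333 and 369 in WT libraries. *Olfr1300-ps1* had 1, 3 and 1 reads in P7 *Tbpl2*-/- and 263 over P7 WT, a ratio of 0.0195 (0.00627 to 0.0460 on the same interval). *CT025659.2* had 19.1, 24.3 and 20.8 in *Tbpl2*-/- libraries, against 799.7, 958 and 779 in WT libraries at P14. *CT025659.2* and *CT025659.3*, a noncoding pair, stood at 3.43% of WT at P7 and 2.53% at P14, and at 5.37% of WT at P7 and 4.66% at P14. *BC051537*, *Dhrs13os* and *Grip1os3* are annotated as antisense and *Cyp2c53-ps* as a transcribed pseudogene. *Dhrs13os* shares 34.3% and *BC051537* 27.9% of stretches with overlapping genes, and their exons overlap other genes over 37.6% and 38.1% in the same order. Since the strand setting of the counting is not given, reads in these overlaps cannot be told apart from those of the partners. *Zscan4-ps1* shares 48.4% with its copies.

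**Figure D4:**
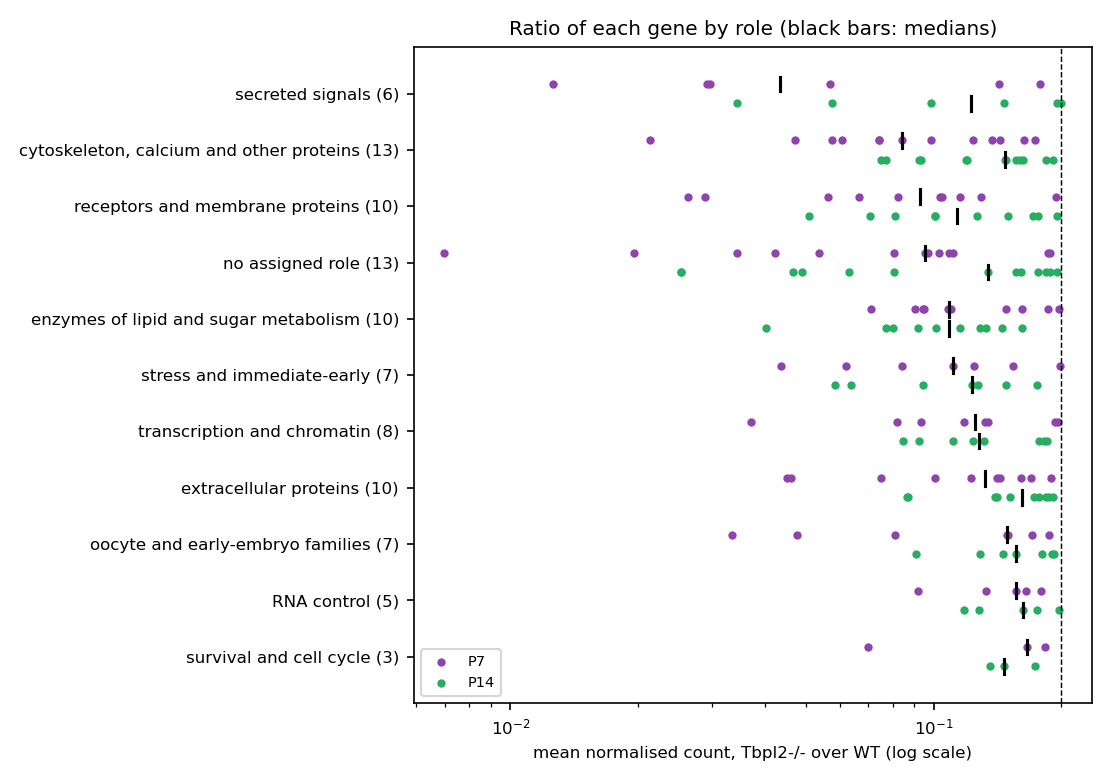
Mean normalised count in *Tbpl2*-/- over that in WT (x axis, log scale) for each of the 92 genes, grouped by role (y axis, number of genes in brackets), at P7 (purple, upper of each pair) and P14 (green, lower). Black bars are medians and the dashed line is the limit of 0.2. The median of secreted signals is 0.0432 at P7 and 0.122 at P14, and that of survival and cell cycle genes is 0.166 at P7 and 0.146 at P14.

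The change from P7 to P14 within a genotype was not part of the rule, although the same libraries supply it. It was tested for all 17715 genes with enough counts in 1 edgeR fit, and a gene is called when the adjusted p is at most 0.05 and the change more than 2-fold. In *Tbpl2*-/- oocytes 33 of the 92 genes were called higher at P14 (35.9%, against 8.78% of all tested genes) and 2 lower (2.17%, against 5.05%). In WT oocytes 16 were called higher (17.4%, against 9.34%) and 2 lower (2.17%, against 11.4%). A P7 *Tbpl2*-/- mean under 20 normalised counts was found in 11 of the 92, and each of these but *Hspa1b* was among the 33. Their rises in *Tbpl2*-/- thus start from few reads. All tested genes include genes with a mean below 100, which the rule kept out of the 92, so the 2 sets are not matched by level. The median log2 change of the 92 was 0.59 in *Tbpl2*-/- and 0.38 in WT, beside 0.02 and 0.03 over all tested genes. All 3 P14 libraries lay above all 3 P7 libraries in 57 of the 92 genes in *Tbpl2*-/- (62.0%, against 26.6% of genes with a mean of at least 100) and in 48 in WT (52.2%, against 36.8%). The gap between the genotypes in these counts and medians is tied to the ratios that the rule used, so nothing is read from it.

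The WT count was lower with P7 WT replicate 1 than without it, and this library was the highest of its group for 13 of the 16 genes called higher. Without P7 WT replicate 1, 24 genes were called higher in WT and 0 of the 16 were lost. Without P7 WT replicate 2 the count was 11, with 5 lost, and without replicate 3 it was 13, with 3 lost. Among the 33 genes called higher in *Tbpl2*-/-, P14 *Tbpl2*-/- replicate 3 was the highest of its group for 22 and replicate 1 the lowest for 21. Without P14 *Tbpl2*-/- replicate 3, 30 genes were called higher in *Tbpl2*-/-, and without P14 *Tbpl2*-/- replicate 1 it was 31. Library size alone gave 11 higher in WT and 32 in *Tbpl2*-/-, and the median of all genes in WT then moved to a log2 change of -0.13. In both genotypes 15 genes were called higher. Another 18 were called in *Tbpl2*-/- and not in WT, and 1 (*Fmo5*) in WT and not in *Tbpl2*-/-. A call in 1 genotype alone does not show that the genotypes differ, and no share over all genes was computed for these counts. The 18 were *AC152076.1*, *Psg20*, *Tnfsf11*, *Ifitm6*, *Il17f*, *Tcstv3*, *Zscan4-ps1*, *Lrmda*, *Dusp1*, *Mrap*, *Krt8*, *Tgfbr3*, *C87977*, *Scml2*, *Insm1*, *Bmp5*, *Cmya5* and *Umodl1*, with log2 fold changes of 1.005 (*Umodl1*) to 2.60 (*AC152076.1*) in *Tbpl2*-/-. The call of *Umodl1* was lost with library size alone, by DESeq2, in a fit of the *Tbpl2*-/- libraries alone and without P7 *Tbpl2*-/- replicate 1 or 2 or P14 *Tbpl2*-/- replicate 2. *AC152076.1*, whose P14 and P7 libraries overlap in *Tbpl2*-/-, lost its call without P7 *Tbpl2*-/- replicate 2 or 3 or P14 *Tbpl2*-/- replicate 3 and did not pass the count filter in the fit of the *Tbpl2*-/- libraries alone. The difference between the 2 age changes is the difference between the 2 ratios that the rule used, so it was not tested. It was above 0 in 67 genes and below 0 in 25, which nearly repeats the 66 genes with the lower ratio at P7 and the 26 at P14. In 6 of the 92 genes (6.52%) all P14 libraries lay on one side of all P7 libraries in *Tbpl2*-/- and on the opposite side in WT, near the 6.83% of genes with a mean of at least 100.

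*Tex26* had the largest rise in both genotypes. It had 67.97, 103 and 103 in P14 *Tbpl2*-/- and 7.07, 8.48 and 6.31 in P7 *Tbpl2*-/- libraries (log2 fold change 3.64 with SE 0.348 and adjusted p = 3.15e-06, edgeR). In WT libraries it had 908, 693 and 696 at P14 and 139.6, 65.4 and 89.9 at P7 (log2 fold change 2.96 with SE 0.254 and adjusted p = 1.46e-06). Of the 92 genes, 0 had a higher mean in P14 *Tbpl2*-/- than in P7 WT. The limit of 0.2 at P14 largely sets this outcome, so nothing is read from it. *Tnc*, tenascin C, had 139, 122 and 189 in P14 and 9.09, 28.6 and 11.6 in P7 *Tbpl2*-/- libraries (log2 fold change 3.19), and 1064, 654 and 637 in P14 and 169.8, 151 and 169 in P7 WT libraries (log2 fold change 2.27). *Olfr1300-ps1* gave a log2 fold change of 3.58 in *Tbpl2*-/-, where its P7 level rests on few reads and the value depends on the prior count, and of 1.98 in WT. *Pecam1* (2.32 in *Tbpl2*-/- and 1.56 in WT) and *Sec14l5* (1.79 and 1.501 in the same order) had the next largest called rises in WT.

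Of the 6 secreted signals 4 were called higher at P14 in *Tbpl2*-/- and 1 in WT. Of the 10 receptors and membrane proteins 5 were called higher in *Tbpl2*-/- and 2 in WT. Over all the genes described the shares called higher were 35.9% in *Tbpl2*-/- and 17.4% in WT. Over all tested genes they were 8.78% and 9.34% in the same order. Whether a role differed from the rest of the genes described was not tested, and the gap between genotypes is tied to the ratios that the rule used. *Tnfsf11* gave log2 fold change 2.33 with SE 0.286 and adjusted p = 2.50e-05 in *Tbpl2*-/-, against log2 fold change 0.16 with SE 0.172 and adjusted p = 0.459 in WT. *Il17f* gave a log2 fold change of 1.92 in *Tbpl2*-/- and 0.18 in WT, *Gpr35* 2.06 and 1.11, and *Mrap* 1.67 and -0.47 in the same order. *Gpr35* lost its WT call with library size alone and without P7 WT replicate 2 or 3. *Krt8* gave log2 fold change 1.51 with SE 0.528 and adjusted p = 0.038 in *Tbpl2*-/-, a call that was lost without P7 *Tbpl2*-/- replicate 2 or 3, P14 *Tbpl2*-/- replicate 1 or 3, or P7 WT replicate 1, and log2 fold change -0.27 with SE 0.315 and adjusted p = 0.498 in WT. *Plat* changed by less than 2-fold in both genotypes (log2 fold change 0.60 with SE 0.112 and adjusted p = 8.54e-04 in *Tbpl2*-/- and log2 fold change 0.39 with SE 0.112 and adjusted p = 0.00958 in WT).

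Of the 5 genes of RNA control 0 were called in either direction by edgeR or by DESeq2. At an unadjusted p under 0.05, 2 were higher and 1 lower at P14 in *Tbpl2*-/- and 2 were higher and 2 lower in WT. At an adjusted p of at most 0.05 and any fold, *Btg4* was higher at P14 in *Tbpl2*-/- (log2 fold change 0.78) and did not pass in WT (-0.33). *Ooep* and *Ttc32* were the genes called lower at P14 in WT. *Ooep* gave log2 fold change -0.04 with SE 0.161 and adjusted p = 0.87 in *Tbpl2*-/- and log2 fold change -1.27 with SE 0.163 and adjusted p = 2.56e-05 in WT. *Ttc32*, for a protein with TPR repeats, gave -1.06 in *Tbpl2*-/- and -1.29 in WT, and its call in *Tbpl2*-/- was lost without P14 *Tbpl2*-/- replicate 3. *Cyp2c53-ps* was the other gene called lower in *Tbpl2*-/- (log2 fold change -1.58 with SE 0.423 and adjusted p = 0.013), with 16.3, 54.1 and 56.2 at P14 and 86.9, 215 and 87.3 at P7.

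**Figure D5:**
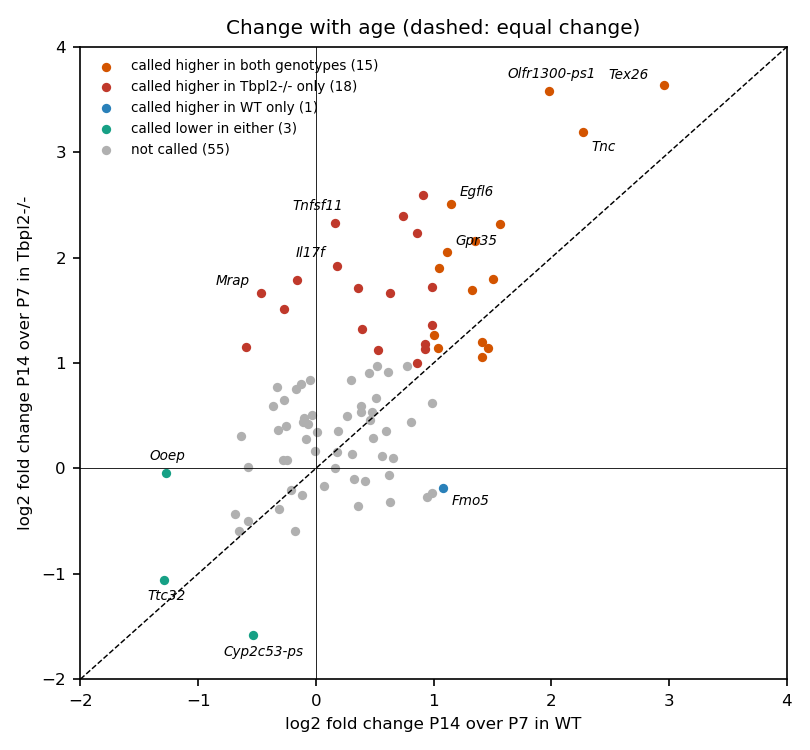
Log2 fold change from P7 to P14 in WT (x axis) and in *Tbpl2*-/- (y axis) for the 92 genes, coloured by the call in each genotype (numbers in brackets), with the dashed line at equal change. The 15 genes called higher in both lie in the upper right, and the 18 called in *Tbpl2*-/- and not in WT lie above the line.

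In features that the rule did not use, the 92 genes differed from the 11548 genes with a mean of at least 100 as follows, given without a test. Their median exon length was 2630 bases, against 4431 bases. Their median GC content, over the longest transcript, was 47.1%, against 49.2%. A single block of exons was found in 6 of the 92 (6.52%: *AU022751*, *Kbtbd7*, *Insm1*, *Hspa1b*, *AC152076.1* and *Gykl1*), against 2.91%, and 83 were protein coding (90.2%, against 93.9%). The median WT level per kb of exon was 771 normalised counts, against 310.1, which the rule raises in part, since a gene low in *Tbpl2*-/- must be high in WT to reach the mean. The genes lay on all autosomes and on the X chromosome, with 8 each on chromosomes 4 and 17 as the most.

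Reads of some of the 92 are hard to assign, and only uniquely aligned reads were counted. For 24 genes more than 10% of the transcript's 50-base stretches occurred in another gene or more than 10% of the exons overlapped one, and 38 genes shared no stretch at all, among them *Gdf9*, *Plat*, *Zp1*, *Tnfsf11*, *Mrap*, *Bcl2l10* and *Btg4*.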

How the data were processed

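Libraries were made from polyadenylated RNA of pooled oocytes (SMART-Seq v4, single reads of 50 bases) with no molecular identifiers. The authors aligned reads with STAR 2.7.0f to mm10, counted uniquely aligned reads per gene with HTSeq 0.9.1 (union mode) and deposited raw counts. They also deposited normalised counts, a signal made by dividing counts by DESeq2 1.22.2 size factors (R 3.5.3). A deposited column of another unit, the median transcript length, was not used for levels, and deposited columns of fold changes and p-values between groups were not used. The strand setting of counting was not given in the sources used here. The total of counts per library, 31467610 to 48030724, sets the precision of low genes, and intervals cover counting error only.

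Levels and the rule use the deposited normalised counts. Age changes, and genotype differences of genes on the lists that are not among the 92, come from 1 quasi-likelihood fit of 4 group means over 12 libraries on the deposited counts (edgeR 4.0.16, TMM factors, filterByExpr, robust, R 4.3.3), with Benjamini-Hochberg adjustment over 17715 genes. The method was tested on simulated data made from these libraries. DESeq2 1.42.0, other scalings, filters, limits and left-out libraries were tried as alternatives. Replicate numbers were not shown to pair the libraries, and the main fit used no pairing. Labels number the replicates without naming animals, so p-values measure the spread between these pools.

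The 92 genes, the gene lists and the roles were chosen with earlier results of these data known. The genes named by rule were the 4 marker genes, the genes highest in WT, those of lowest ratio, those at the limits, those of largest age change, up to 3 per role and those on a list. Other members are named to account for all 92, and *Insm1*, *Ank* and the genes of the lists that are not among the 92 were picked after their values were seen. Exon length, GC content and stretches of 50 bases shared with other genes were computed from GENCODE transcripts, and promoters from RefSeq.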

Additional observations from a re-analysis of the deposited data

Results flagged for a closer look

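For 6 of the 92 genes every P14 library lay on one side of every P7 library in *Tbpl2*-/- oocytes and on the opposite side in WT oocytes (6.52%, near the 6.83% of genes with a mean of at least 100). The log2 fold change from P7 to P14 was 1.67 in *Tbpl2*-/- and -0.47 in WT for *Mrap*, and 1.15 in *Tbpl2*-/- and -0.59 in WT for *Insm1*. For *Btg4* it was 0.78 in *Tbpl2*-/- and -0.33 in WT, for *Bcl2l10* 0.59 in *Tbpl2*-/- and -0.36 in WT, and for *Ccdc69* 0.36 in *Tbpl2*-/- and -0.32 in WT. *Ank* went the other way, with -0.32 in *Tbpl2*-/- and 0.63 in WT. The difference between genotypes was not tested, since it is the difference between the 2 ratios by which the genes were chosen.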

How the results depend on the processing

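The number of genes depends on the limits. It was 45 with library size alone, 58 with a minimum mean of 500, 23 with a ratio of at most 0.1, 162 with a ratio of at most 0.25, 165 with no symbols excluded, and 50 where the highest *Tbpl2*-/- library over the lowest WT library had to be at most 0.2. Leaving out 1 library at a time gave 85 to 101. Without the limit of 2-fold, 57 genes were higher and 6 lower at P14 in *Tbpl2*-/-, and 43 higher and 11 lower in WT. With 1 library left out, 30 to 33 were called higher and 1 to 2 lower in *Tbpl2*-/-, and 11 to 24 higher and 2 lower in WT. With a replicate block, 32 were higher and 2 lower in *Tbpl2*-/- and 18 higher and 2 lower in WT. The replicate numbers were not shown to mark a shared animal or day: libraries of the same number had correlations of deviations of 0.263, 0.0953 and 0.0929 in *Tbpl2*-/- and of -0.0262, -0.0391 and 0.0196 in WT. TATAAA anywhere in 250 bases was found in 7 of 60 genes (11.7%). That compares with 4.47% of genes with a mean of at least 100 and 8.94% of all genes with a promoter. TATAA in bases 40 to 20 was found in 7 of 60 (11.7%), against 2.33% and 4.22% in the same order. Of the age changes of single genes, 3232 comparisons with an alternative kept direction and call, 57 lost the call, 22 gained it and 0 reversed, and *AC152076.1* had no value in the fit of *Tbpl2*-/- libraries alone. Genes with P7 *Tbpl2*-/- means under 20 normalised counts (11 of 92) have ratios limited by depth.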
